A study of Drosophila melanogaster with 12 samples.

Results

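The genes described here are 9 genes of the Drosophila melanogaster integrated stress response and of folate-dependent one-carbon metabolism, chosen by name: crc, PEK, Gcn2, trbl, Thor, AsnS, Nmdmc, Shmt and pug. Of these, 8 had a probe set annotated with that gene symbol alone, among 11982 such genes on the array, and each of the 8 had exactly 1 such probe set. Thor, which encodes the translation inhibitor 4E-BP, had none and was not analysed here. The samples were 12 pools of 115 green fluorescent neurons sorted from the dissociated brains of at least 15 adult flies, with 3 pools in each of 4 groups: dopaminergic neurons of control flies, dopaminergic neurons of parkin null flies, cholinergic neurons of control flies and cholinergic neurons of parkin null flies. The parkin allele, the control genotype, the drivers of the fluorescent marker and the age of the flies are not given in the sources used here. Each pool was amplified and hybridised to 1 Affymetrix Drosophila Genome 2.0 array, and values are log2 intensities per probe set, on which a difference of 1 is a 2-fold change. The study set neurons sensitive to the loss of parkin, which encodes a ubiquitin ligase that marks damaged mitochondria, beside neurons that are not.

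In the integrated stress response, kinases that sense stress phosphorylate the translation initiation factor eIF2alpha. General translation then falls while translation of the transcription factor ATF4, encoded in flies by crc, increases. ATF4 is known to drive genes for amino acid synthesis, aminoacyl-tRNA charging and mitochondrial one-carbon metabolism, and this programme is a known response to mitochondrial dysfunction. Because crc is regulated largely at translation, its mRNA level is not a measure of ATF4 activity.

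No member gene passed an adjusted p of 0.05 between parkin null and control neurons in either neuron type. In dopaminergic neurons the mean of crc was lower in the mutants by 1.70 on the log2 scale, and in cholinergic neurons it was higher by 1.16, with intervals that included 0 in both. On the values as deposited AsnS had the same signs as crc, and Nmdmc, Shmt, pug and trbl had the opposite signs, again with intervals that included 0. The mean levels of crc and AsnS exceeded those of 93.7% and 79.5% of all probe sets, and those of Nmdmc, Shmt, pug and trbl 46.5% to 58.2%. Nmdmc, Shmt, pug and trbl all read lowest on cholinergic mutant array 3, which had the lowest array median (5.59). Nmdmc, Shmt and pug read highest on dopaminergic mutant array 3, which had the highest (6.30). The part of level and array in these signs was not tested. The clearest separation among the member genes was between neuron types: AsnS was higher in all 3 dopaminergic control pools than in all 3 cholinergic control pools, by 1.71 ± 0.58 (SE), although its adjusted p was 1.00 by limma. Of all tested probe sets, 4.96% were likewise higher in all dopaminergic control pools and 3.53% were lower in all of them.

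The array of dopaminergic mutant pool 3 stood apart from the rest. It had 1627 probe sets at or above 8, against 2182 to 3307 on the other 11 arrays, and 511 of the 730 probe sets that reached 8 on at least 10 of the others (70%) were below 8 on it. That share was 20.1% on dopaminergic mutant array 1, 11.8% on cholinergic control array 2 and 4.15% to 6.03% on the other 9. The pan-neuronal gene elav read 6.27 on dopaminergic mutant array 3 and 9.07 to 11.90 on the others. Another, brp, was also low there at 5.31, against 10.27 to 11.64 elsewhere. A further pan-neuronal gene, nSyb, was nearly unchanged: its 10.65 there lay just below its range of 10.70 to 11.61 elsewhere. The mean of 5 dopaminergic marker probe sets was 10.75 to 11.47 in the dopaminergic controls and 5.67 to 11.22 in the dopaminergic mutants, against 5.92 to 7.65 in cholinergic pools. The 5.67, below all cholinergic pools, was on dopaminergic mutant array 3, where ple read 4.36, DAT 5.54 and Vmat 5.19. On dopaminergic mutant array 1, ple read 7.01 and Fer2 6.84, against 10.39 to 10.57 and 9.59 to 10.82 in dopaminergic controls. There DAT, Vmat and Ddc stayed high at 9.77, 12.71 and 11.38. The mean of 5 glial marker probe sets was 3.97 to 6.24 and 4.34 to 6.40 in dopaminergic controls and mutants and 4.72 to 6.68 and 5.81 to 7.21 in cholinergic controls and mutants. The mean of 2 cholinergic marker probe sets, ChAT and VAChT, did not set the types apart: it was 8.70 to 10.52 in dopaminergic and 9.43 to 10.50 in cholinergic controls. It was 5.58 to 9.41 in dopaminergic mutants and 10.10 to 10.79 in cholinergic mutants. Of the markers of other neurons, the photoreceptor gene chp read 9.60 to 10.66 in dopaminergic controls and 5.09 to 7.93 in dopaminergic mutants. The other photoreceptor marker with a probe set, trp, did not fall with it and read 7.24 to 7.48 and 7.06 to 8.58. The glutamatergic gene VGlut read 4.31 to 4.90 in dopaminergic controls and 4.99 to 9.52 in dopaminergic mutants. In the same list Gad1 read 2.63 to 11.18 and 3.59 to 9.60, and VGAT read 5.68 to 10.14 and 6.22 to 10.42. The part of these differences in the results was not tested, and the dopaminergic mutant difference of each member gene is given with and without the array of dopaminergic mutant pool 3. The parkin gene, park, had no probe set of its own, so the loss of its transcript was not checked.

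**Figure D1:**
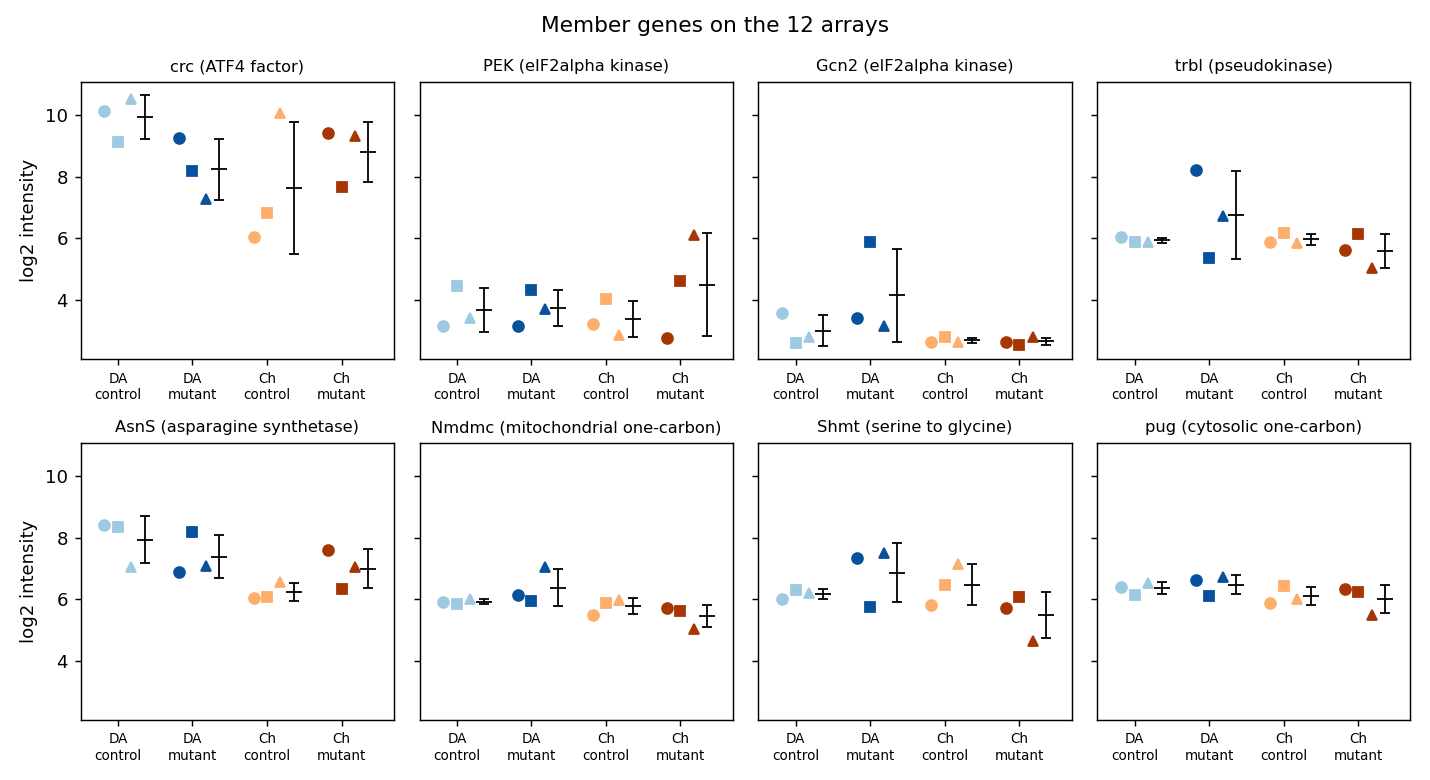
Log2 intensity of the 8 member genes with a probe set on each of the 12 arrays (DA, dopaminergic; Ch, cholinergic). Circles, squares and triangles are replicates 1, 2 and 3 of a group, and the bars are the mean and SD of the 3 pools. crc is spread from 6.05 to 10.08 among the cholinergic controls, while PEK and Gcn2 lie low on nearly all arrays.

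The transcription factor gene crc (CG8669) was at or above the median of its array on all 12 arrays. In dopaminergic controls it read 10.16, 9.14 and 10.54 in replicates 1, 2 and 3, and in dopaminergic mutants it read 9.27, 8.21 and 7.27. The highest mutant pool lay above the lowest control pool, so the groups overlapped. The mutant mean was 8.25 ± 1.00 (SD, n = 3), and the difference from control was -1.70 ± 1.08 (SE; 95% interval -4.07 to 0.68; limma adjusted p = 0.935). Without dopaminergic mutant pool 3 the difference was -1.21, and over all single arrays left out it ran from -2.20 to -1.21.

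In cholinergic controls crc read 6.05, 6.82 and 10.08, and in cholinergic mutants it read 9.42, 7.68 and 9.33. Control pool 3 was above all 3 mutant pools, and the other two controls were below them. The range of the 3 cholinergic controls, 4.03, was exceeded in that group by 12.4% of tested probe sets. The mutant minus control difference was 1.16 ± 1.08 (SE; 95% interval -1.21 to 3.54; limma adjusted p = 0.939), and it was 2.38 without cholinergic control pool 3 and 0.36 without cholinergic control pool 1. The direction for crc in cholinergic neurons turned in 1 of 11 alternative settings, the one without the arrays whose sample titles carry a code starting with D. The sources used here do not explain this code. With the code letters as a block the difference was 0.12. Cholinergic control pools 1 and 2 carry such a code and no cholinergic mutant pool does. Without the 4 arrays so coded, the cholinergic difference for crc was -1.27, from 1 control array against 3 mutant arrays, and the dopaminergic difference was -2.61, from 2 arrays against 2. The 1 cholinergic control array left is the high pool 3, so the code and that pool cannot be told apart here.

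The 2 eIF2alpha kinase genes read low. PEK (CG2087), the kinase of endoplasmic reticulum stress, and Gcn2 (CG1609), the kinase that senses uncharged tRNA, were each at or above the array median on 1 array only, so neither entered the test. PEK read 3.14, 4.47 and 3.40 in dopaminergic controls and 3.16, 4.32 and 3.71 in dopaminergic mutants, so its values ran over about the same range in both. In cholinergic neurons PEK read 3.22, 4.02 and 2.87 in controls and 2.77, 4.62 and 6.10 in mutants. Its highest value was in cholinergic mutant pool 3, a gap of 1.48 to the next highest array, and 19.7% of all probe sets had a larger gap. Gcn2 read 3.59, 2.61 and 2.81 in dopaminergic controls and 3.42, 5.89 and 3.15 in dopaminergic mutants. In cholinergic neurons Gcn2 stayed between 2.55 and 2.79 on all 6 arrays. Dopaminergic mutant pool 2 alone read high for Gcn2, 2.31 above the next array, a gap exceeded by 9.19% of all probe sets. Without dopaminergic mutant pool 3 the dopaminergic mutant minus control difference of the means moved from 0.065 to 0.073 for PEK and from 1.15 to 1.65 for Gcn2.

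The gene trbl (CG5408) encodes tribbles, a pseudokinase whose mammalian relative TRIB3 is an ATF4 target. It read 6.03, 5.90 and 5.89 in dopaminergic controls and 8.22, 5.37 and 6.73 in dopaminergic mutants. The mutant pools lay on both sides of the tightly grouped controls, and their SD was 1.43 against 0.08 in the controls. The difference was 0.83 ± 0.61 (SE; 95% interval -0.51 to 2.17; limma adjusted p = 0.935). It was 0.11 without dopaminergic mutant pool 1, 1.53 without dopaminergic mutant pool 2 and 0.85 without dopaminergic mutant pool 3. With limma's array weights, which gave dopaminergic mutant pool 1 a weight of 4.56 and the other two mutant pools 0.28 and 0.41, the difference was 2.01 with an adjusted p of 0.0271, so the call for trbl depended on how much weight that pool had. In cholinergic neurons trbl read 5.90, 6.16 and 5.84 in controls and 5.62, 6.15 and 5.03 in mutants, a difference of -0.37 ± 0.61 (SE).

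**Figure D2:**
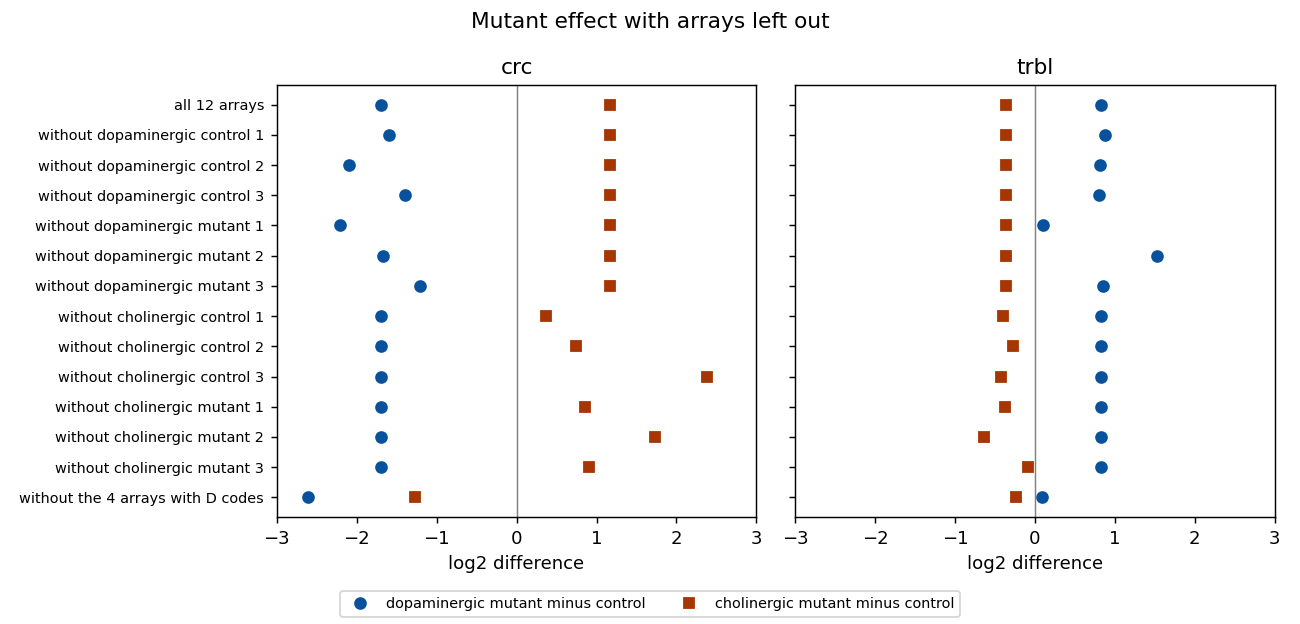
Mutant minus control difference (log2) of crc and trbl with all 12 arrays, with each array left out in turn and without the 4 arrays whose title code starts with D. The cholinergic difference for crc runs from 0.36 to 2.38 over single arrays left out and is -1.27 without the D-coded arrays, and the dopaminergic difference for trbl falls to 0.11 without dopaminergic mutant pool 1.

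AsnS (CG33486) encodes asparagine synthetase, a classical ATF4 target that makes asparagine from aspartate and glutamine. It read 8.41, 8.35 and 7.06 in dopaminergic controls and 6.90, 8.18 and 7.07 in dopaminergic mutants. The groups overlapped, and the difference was -0.56 ± 0.58 (SE; 95% interval -1.84 to 0.73; limma adjusted p = 0.935). It was -0.40 without dopaminergic mutant pool 3 and ran from -1.0 to -0.32 over single arrays left out. In cholinergic neurons AsnS read 6.03, 6.08 and 6.56 in controls and 7.58, 6.33 and 7.05 in mutants. There 2 of the 3 mutant pools were above all controls, and the difference was 0.76 ± 0.58 (SE; 95% interval -0.52 to 2.05; limma adjusted p = 0.939).

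Shmt, Nmdmc and pug carry one-carbon units. Shmt (CG3011) encodes serine hydroxymethyltransferase, which moves a carbon from serine to tetrahydrofolate and leaves glycine. It read 5.99, 6.31 and 6.19 in dopaminergic controls and 7.33, 5.75 and 7.5 in dopaminergic mutants, so 2 mutant pools were above and 1 was below all controls. The difference was 0.70 ± 0.57 (SE; 95% interval -0.55 to 1.94; limma adjusted p = 0.935). It was 0.38 without dopaminergic mutant pool 3 and 1.25 without dopaminergic mutant pool 2. In cholinergic neurons Shmt read 5.80, 6.47 and 7.14 in controls and 5.72, 6.07 and 4.63 in mutants. The lowest value was in cholinergic mutant pool 3, and the difference was -0.995 ± 0.57 (SE; 95% interval -2.24 to 0.25; limma adjusted p = 0.939). Without cholinergic mutant pool 3 it was -0.58.

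Nmdmc (CG18466) encodes the mitochondrial methylenetetrahydrofolate dehydrogenase and cyclohydrolase. It read 5.92, 5.83 and 6.01 in dopaminergic controls and 6.12, 5.94 and 7.06 in dopaminergic mutants. The high mutant value was on the array that stood apart: the difference was 0.46 ± 0.40 (SE; limma adjusted p = 0.935) with that array and 0.11 without it. In cholinergic neurons Nmdmc read 5.49, 5.87 and 5.99 in controls and 5.70, 5.60 and 5.04 in mutants, a difference of -0.33 ± 0.40 (SE; limma adjusted p = 0.939). It was at or above the array median on 7 of 12 arrays.

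The gene pug (CG4067) encodes the cytosolic trifunctional enzyme that interconverts the folate forms used for purine synthesis. It read 6.40, 6.14 and 6.53 in dopaminergic controls and 6.61, 6.11 and 6.71 in dopaminergic mutants, and the groups overlapped throughout. The difference was 0.12 ± 0.37 (SE; 95% interval -0.70 to 0.94; limma adjusted p = 0.956), and 0.0081 without dopaminergic mutant pool 3. In cholinergic neurons pug read 5.89, 6.43 and 6.01 in controls and 6.33, 6.22 and 5.47 in mutants, with a difference of -0.10 ± 0.37 (SE; 95% interval -0.92 to 0.72; adjusted p = 0.965). Its pooled SD within groups, 0.33, was among the smallest: 2.33% of tested probe sets had a smaller one. That of crc, 1.33, was larger than that of 64.4% of them. The sign for pug is not stable, since in both neuron types it turned when arrays were centred on their medians.

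**Figure D3:**
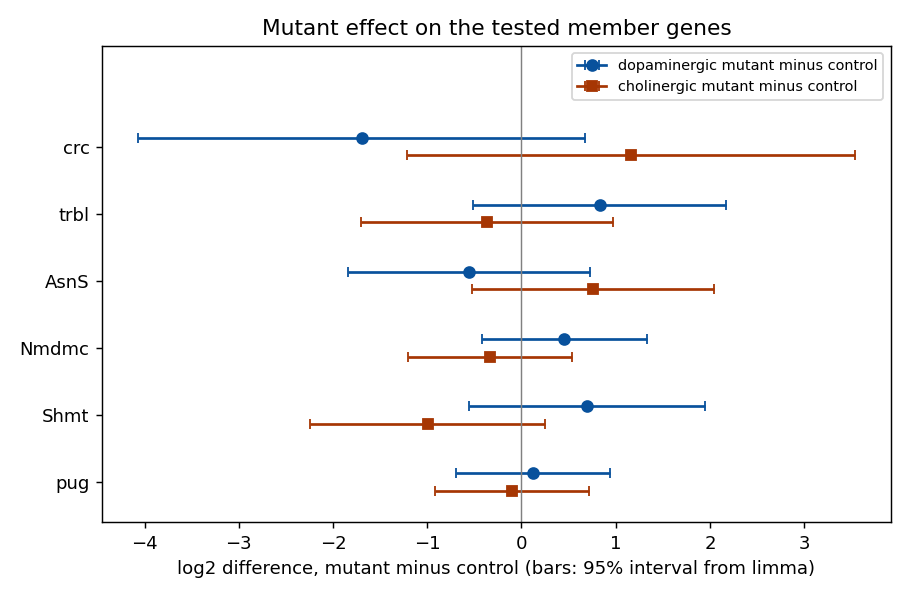
Mutant minus control difference (log2 intensity) of the 6 tested member genes in each neuron type, with the 95% interval from limma (3 pools a group). All 12 intervals include 0, and for each gene the dopaminergic and the cholinergic estimate shown lie on opposite sides of 0. Under other settings crc (without the D-coded arrays), trbl (with the D codes as a block) and pug (among others with quantile normalization and with array weights) had the same sign in both.

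Read against all 12460 tested probe sets, the member genes did not stand out in the dopaminergic comparison. No member was called at an adjusted p below 0.05, against 0% of tested probe sets, and none had an unadjusted p below 0.05, against 4.49%. The mutant mean was higher for 4 of the 6 tested members (3 with quantile normalization, which turned pug), against 59.7% of tested probe sets. In no member were mutant and control pools free of overlap, against 6.1% of probe sets that were higher in all mutant pools and 2.9% that were lower. The median difference was 0.29 over the 6 members and 0.18 over all tested probe sets.

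In the cholinergic comparison the members also had no call, against 0.0482% of tested probe sets at an adjusted p below 0.05, and none with an unadjusted p below 0.05, against 4.57%. The mutant mean was higher for 2 of the 6, against 41.9% of tested probe sets. Again no member was free of overlap, against 3.67% higher and 8.26% lower in all mutant pools. The median difference was -0.22 over the 6 members and -0.17 over all tested probe sets. The p-values measure the spread between pools, and nothing in the labels says whether pools of a group came from separate fly cultures. In pools of sorted neurons, fewer cells expressing a gene and less RNA per cell cannot be told apart.

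Whether the loss of parkin acted differently in the 2 neuron types was tested as the difference of the mutant effects, dopaminergic minus cholinergic. This difference was -2.86 ± 1.53 (SE; 95% interval -6.21 to 0.50; limma adjusted p = 0.773) for crc. For Shmt it was 1.69 ± 0.80 (SE; 95% interval -0.07 to 3.46; limma adjusted p = 0.773), the smallest p among the members. AsnS (-1.32 ± 0.83, SE), trbl (1.20 ± 0.86), Nmdmc (0.79 ± 0.56) and pug (0.22 ± 0.53) had larger p-values. None of the 6 passed at an adjusted p, against 0% of tested probe sets, or at an unadjusted p below 0.05, against 5.18%. The difference was above 0 for 4 of 6, against 57.7%. On the values as deposited all 6 members had opposite signs in the 2 neuron types, and none of these differences passed the test. The signs were not stable for 3 of them. crc was below 0 in both types without the D-coded arrays (-2.61 and -1.27). trbl was above 0 in both with the D codes as a block (0.83 and 0.14). pug had the same sign in both with quantile normalization, with array weights and with cholinergic control pool 2 or cholinergic mutant pool 3 left out.

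Between control neurons, AsnS was the member with non-overlapping groups: it read 7.06 to 8.41 in dopaminergic pools and 6.03 to 6.56 in cholinergic pools. The difference was 1.71 ± 0.58 (SE; 95% interval 0.43 to 3.0; limma adjusted p = 1.00), and it ran from 1.48 to 2.15 with single arrays left out. Groups did not overlap, with the dopaminergic pools higher, for 4.96% of tested probe sets, and for 3.53% with the dopaminergic pools lower. For crc the dopaminergic minus cholinergic difference was 2.30 ± 1.08 (SE; 95% interval -0.08 to 4.67; limma adjusted p = 1.00), with cholinergic control pool 3 inside the dopaminergic range. Nmdmc (0.14), Shmt (-0.31), pug (0.25) and trbl (-0.03) had smaller differences. Of the 6 members, 1 had an unadjusted p below 0.05, against 3.63% of tested probe sets, none was called, against 0%, and 4 were higher in dopaminergic pools, against 54.1%. The dopaminergic controls also serve the mutant comparison, so the high AsnS and crc values there enter both.

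Across the 12 arrays, the genes whose levels followed crc most closely were RpS28b, a ribosomal protein gene (Pearson r = 0.84, Spearman rho = 0.74), Pis, the phosphatidylinositol synthase gene (r = 0.81, rho = 0.90), and CG13364 (r = 0.79, rho = 0.81). These are descriptions over 12 arrays of 4 groups, chosen as the highest of 7611 genes, and arrays share their overall signal. Without dopaminergic mutant pool 3 the r of the 3 genes was 0.838, 0.808 and 0.770. Among the members AsnS had r = 0.52 with crc, rank 223, while pug (0.03), Shmt (-0.05), Nmdmc (-0.06) and trbl (-0.07) lay near the median of all genes, -0.03.

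The 5 related lists place the members in their pathways. Beside their counts, 59.7% of all tested probe sets had a higher mean in dopaminergic mutants and 41.9% in cholinergic mutants. Of 17 other genes of the integrated stress response and related stress pathways 9 were tested. In dopaminergic neurons 7 of these had a lower mutant mean and 2 a higher one, with a median difference of -1.92 against 0.18 over all tested probe sets. None was called or had an unadjusted p below 0.05. Without dopaminergic mutant pool 3 the median was -1.42 with 8 of 9 lower, and without the D-coded arrays it was -0.45 with 7 lower. In cholinergic neurons 7 of the 9 were higher, with a median of 0.56 against -0.17, and 5 were higher without the D-coded arrays. The mean of the neuronal markers elav, nSyb and brp was 7.41 in the lowest dopaminergic mutant pool, against 10.42 to 11.35 in the dopaminergic controls. Of these markers nSyb alone stayed high in that pool, at 10.65. The part of the neuronal marker mean in these list medians was not tested. In this list scyl, a stress-induced inhibitor of TOR signalling, read 10.96, 11.39 and 10.88 in dopaminergic controls and 10.12, 10.28 and 5.08 in mutants. The scyl difference was -2.59 ± 1.21 (SE; limma adjusted p = 0.935) and -0.88 without dopaminergic mutant pool 3. Atf6, a sensor of protein folding in the endoplasmic reticulum, differed by -1.92 ± 1.01 (SE) in dopaminergic and 0.34 in cholinergic neurons. Atf6 and Ire1 in this list lie outside the eIF2alpha pathway described above, and the dopaminergic Atf6 difference is the list median.

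Of 18 other genes of one-carbon, serine and glycine metabolism 11 were tested, with 6 higher and 5 lower in the mutants of each neuron type and medians of 0.05 in both that were -0.06 and -0.05 with quantile normalization. No gene was called, and the shares of all tested probe sets that were higher were 59.7% in dopaminergic and 41.9% in cholinergic mutants. CG6287, phosphoglycerate dehydrogenase, the entry enzyme of serine synthesis, read 7.05, 6.80 and 7.25 in dopaminergic controls and 8.06, 9.82 and 8.42 in dopaminergic mutants. All mutant pools were above all controls, as was so for 6.1% of all tested probe sets. The CG6287 difference was 1.73 ± 0.70 (SE; 95% interval 0.20 to 3.27; limma adjusted p = 0.935), and the cholinergic difference was 0.05. Sardh, sarcosine dehydrogenase, differed by -1.46 ± 0.83 (SE) in cholinergic neurons and 0.53 in dopaminergic neurons. Its cholinergic controls read 8.91, 5.82 and 5.11 and its cholinergic mutants 5.18, 5.23 and 5.05, so control pool 1 alone was high, and without it the difference was -0.31. Serine made by phosphoglycerate dehydrogenase and its partners is the substrate of Shmt.

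Of 8 purine synthesis genes 3 were tested, with no call. All 3 were higher in dopaminergic mutants, against 59.7% of all tested probe sets, with a median of 0.63 against 0.18. In cholinergic mutants all 3 were lower, while 41.9% of all tested probe sets were higher, and the median was -0.46 against -0.17. The probe sets of ade2, Prat, Prat2 and AdSL did not pass the filter and did not all share these directions. In dopaminergic mutants the means of Prat2 and AdSL were lower and those of ade2 and Prat higher. In cholinergic mutants Prat was higher (5.99 against 3.77) and ade2, Prat2 and AdSL were lower. The dopaminergic median was 0.21, with 2 of 3 higher, without dopaminergic control pool 1, and 0.29, with 2 of 3 higher, without dopaminergic mutant pool 2. The cholinergic median was -0.21, with 2 of 3 lower, without the D-coded arrays. The gene ras (raspberry), IMP dehydrogenase, differed by -2.71 ± 0.98 (SE; limma adjusted p = 0.939) in cholinergic neurons, and ade3 by 0.76 ± 0.46 (SE) in dopaminergic neurons. Of 19 cytosolic aminoacyl-tRNA synthetase genes 15 were tested. In dopaminergic mutants 10 were higher, against 59.7% of all tested probe sets. The median was 0.38 against 0.18 over all tested probe sets, and 0.05 without dopaminergic mutant pool 3. In cholinergic mutants 6 were higher, against 41.9%, and 9 were lower. The median there was -0.32 against -0.17, and 0.18 without the D-coded arrays. ThrRS differed by 1.71 ± 0.99 (SE) in dopaminergic and 1.88 ± 0.99 in cholinergic neurons, and AlaRS by -1.15 ± 0.55 (SE) in cholinergic neurons. ThrRS read 6.19, 6.24 and 6.22 in dopaminergic controls and 10.12, 6.19 and 7.47 in dopaminergic mutants, and its difference was 0.61 without dopaminergic mutant pool 1. No synthetase gene was called on the values as deposited, but with array weights, which favour that pool, ThrRS was called in dopaminergic neurons with a difference of 3.49 (limma adjusted p = 0.0303).

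Of 12 amino acid transporter genes 7 were tested, and all 7 had a lower mean in dopaminergic mutants, with a median of -0.22. The low-reading gb, slif, CG8785 and NAAT1 did not pass the filter, and all had a higher mean in dopaminergic mutants. Their means in dopaminergic controls and mutants were 4.29 and 4.78, 3.75 and 3.85, 5.20 and 5.84, and 4.77 and 5.47. The shared direction of the 7 therefore holds only for the genes that the filter kept. Of all tested probe sets 59.7% were higher there, with a median of 0.18. Without dopaminergic mutant pool 3 the transporter median was 0.05 with 3 lower. The transporter gene path read 5.37, 9.80 and 9.58 in dopaminergic controls and 3.93, 4.24 and 4.22 in dopaminergic mutants. The path probe set was below the array median on all 3 dopaminergic mutant and all 3 cholinergic control arrays and passed the filter through 2 dopaminergic controls and 1 cholinergic mutant, so the sizes of its differences are set against values that may be background. All mutant pools of path were below all controls, as was so for 2.9% of all tested probe sets. The path difference was -4.12 ± 1.19 (SE; 95% interval -6.73 to -1.51; limma adjusted p = 0.782). Its cholinergic difference was 1.68 ± 1.19 (SE), and the difference between neuron types was -5.80 ± 1.68 (SE; limma adjusted p = 0.773). For sbm, another transporter, the cholinergic difference was 2.67 ± 1.31 (SE). None of the 7 was called in either neuron type.

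**Figure D4:**
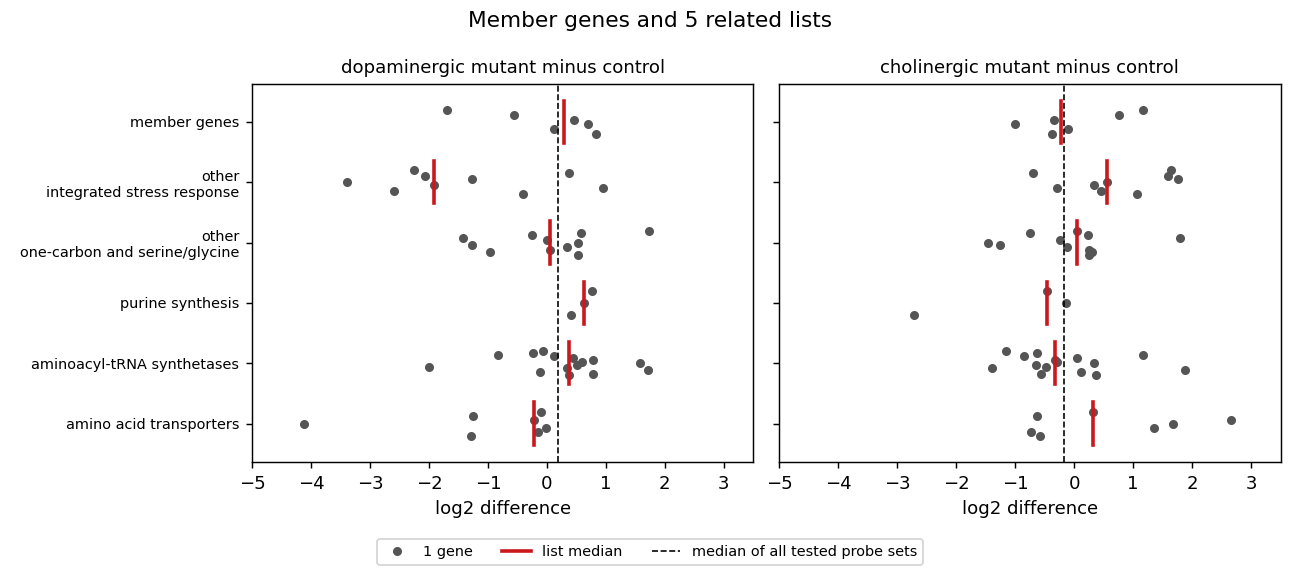
Mutant minus control difference (log2) of each tested gene in the member set and in 5 related lists, for dopaminergic and cholinergic neurons. Points are genes, red bars are list medians and the dashed line is the median of all tested probe sets (0.18 and -0.17). The other stress response genes have a median of -1.92 in dopaminergic neurons and 0.56 in cholinergic neurons, and no gene shown passed the adjusted threshold.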

How the data were processed

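The authors deposited a table of log2 intensities, 1 per probe set and array. How they normalized and summarised the probes is not given in the sources used here, and the medians of the arrays lay between 5.59 and 6.30. Amplification was with the Ovation One-Direct kit, per the labels' protocols. The number of arrays, 3 a group, limits the precision. Of 18952 probe sets 183 controls were left out; 13647 of the remaining 18769 had 1 symbol, 402 several and 4720 none, and the Release 6 gene table held 13544 of the single symbols. Probe sets at or above their array's median on at least 3 arrays were tested, 12460 in all. Differences were tested on the deposited values in R 4.3.3 with limma 3.58.1, whose lmFit took 4 group means over all 12 arrays and whose eBayes used a trend on mean level, and p-values were adjusted over all tested probe sets by Benjamini-Hochberg. The test was also run on simulated data with known shifts larger than any member difference. That run checked the estimated shifts, and not the power to call differences of the sizes reported here. Figures used Python 3.11.15, pandas 2.3.3 and matplotlib 3.10.9.

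The members and lists were chosen with earlier results of these data known. All members are named. Of each related list the 2 tested genes with the smallest p in either neuron type are named, of up to 4 that the rule allowed, and the 3 genes most like crc by Pearson r. Release 6 annotates genes that overlap crc (CG46314), AsnS (chb), Nmdmc (Rel, Mst85C), Shmt (CG12236, asRNA:CR44108), pug (CG14683, CG46459) and Gcn2 (PNPase). Probe, promoter and protein sequences were not used here.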

Additional observations from a re-analysis of the deposited data

How the results depend on the processing

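Across 11 alternative settings, of which the letters of the title codes as a block were chosen after seeing the data, and 12 fits each without 1 array, no member passed the threshold in any comparison except trbl in dopaminergic neurons with array weights, which made the number of members called 1; the weights' convergence tolerance was not reached. Counts of called probe sets moved more, and the cause was not tested. In dopaminergic neurons the count of 0 became 1 with no filter, 2 with only the arrays compared, 524 with array weights and 0 to 75 with single arrays left out (75 without dopaminergic mutant pool 2). In cholinergic neurons the count of 6 became 0 with a filter at the 65th percentile, 2 without a variance trend, 0 with the D codes as a block, 0 without the D-coded arrays, and 0 to 11 with single arrays left out (0 without cholinergic mutant pool 1 or 2, 11 without pool 3). For the difference of effects it was 0 to 4 with single arrays left out (4 without dopaminergic mutant pool 2). Between controls the count of 0 became 1 with no filter, 6 with array weights, 1 with only the arrays compared and 0 to 5 with single arrays left out (5 without dopaminergic mutant pool 2).

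For genes that entered the test, signs turned as follows, on the log2 scale. In dopaminergic neurons pug was -0.034 with quantile normalization, -0.041 with arrays centred and -0.054 without the D-coded arrays; AlaRS was 0.10 with quantile normalization and sbm 0.55 with array weights. In cholinergic neurons pug was 0.0096 with arrays centred, 0.052 with array weights and 0.0015 without the D-coded arrays; CG6287 was -0.070 with quantile normalization and -0.026 with array weights; trbl was 0.14 with the D codes as a block; crc was -1.27 and Atf6 -0.89 without the D-coded arrays. The difference of effects for pug was -0.017 with quantile normalization, -0.050 with arrays centred and -0.056 without the D-coded arrays. Between controls trbl was 0.23 with the D codes as a block and 0.12 without the D-coded arrays, and Nmdmc was -0.025 without them. With single arrays left out, signs turned within these ranges: in dopaminergic neurons ras -0.095 to 1.35, AlaRS -0.40 to 0.29 and sbm -1.23 to 1.22; in cholinergic neurons pug -0.26 to 0.17, Atf6 -0.25 to 0.96 and CG6287 -0.45 to 0.69; pug's difference of effects -0.044 to 0.41; and between controls Nmdmc -0.011 to 0.24, trbl -0.088 to 0.072 and Shmt -0.64 to 0.030. Nmdmc and trbl failed the filter at the 65th percentile, and path failed the filter in 3 of the fits without 1 array. With the title code letters as a block no probe set was called in any of the 4 comparisons and no member passed. With this block crc was -0.88 in dopaminergic and 0.12 in cholinergic neurons. Among genes that entered the test, signs turned for trbl (0.12 in cholinergic neurons, 0.17 between controls), sbm (0.55 in dopaminergic neurons) and CG6287 (-0.0054 in cholinergic neurons). The signs of PEK and Gcn2, which did not enter the test, turned too. Over the alternative settings PEK ran from -0.50 to 0.75 in dopaminergic neurons. Gcn2 ran from -0.65 to 0.076 in cholinergic neurons and from -0.027 to 0.57 between controls. With single arrays left out PEK ran from -0.23 to 0.46 in dopaminergic neurons and from -0.11 to 0.62 between controls. Gcn2 then ran from -0.10 to 0.019 in cholinergic neurons. No analysis paired by replicate number was possible because the labels give none. The code letters entered as the blocks above, and what they stand for is not given in the sources used here.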

Other observations

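Among the amino acid transporter genes, 2 differed between control neuron types by more than any member; both were chosen after their values were seen. JhI-21 was at or above the array median on 5 arrays, all dopaminergic, and path on none of the cholinergic controls, so each entered the test largely through the group where it was high, and the sizes below are set against values that may be background. JhI-21 read 10.41, 7.99 and 10.74 in dopaminergic controls and 4.57, 5.35 and 4.66 in cholinergic controls, a difference of 4.85 ± 1.1 (SE; limma adjusted p = 0.608) that ran from 4.34 to 5.72 with single arrays left out. In the mutants JhI-21 read 10.96, 8.68 and 5.74 in dopaminergic pools and 4.43, 4.46 and 3.82 in cholinergic pools, with the lowest dopaminergic value on the array that stood apart. The gene path read 2.83, 3.55 and 5.10 in cholinergic controls, and its dopaminergic minus cholinergic difference was 4.42 ± 1.19 (SE; limma adjusted p = 0.936). Neither passed the adjusted threshold.

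PPP1R15, the regulatory subunit that directs dephosphorylation of eIF2alpha, was also chosen after its values were seen. It read 8.88, 8.29 and 11.18 in dopaminergic controls and 5.81, 10.21 and 5.54 in dopaminergic mutants, so the groups overlapped, and the difference was -2.26 ± 1.31 (SE; limma adjusted p = 0.935). In cholinergic neurons it read 9.07, 5.96 and 7.88 in controls and 9.18, 9.49 and 9.17 in mutants. All mutant pools were above all controls, as was so for 3.67% of all tested probe sets. The cholinergic difference was 1.64 ± 1.31 (SE; limma adjusted p = 0.939). The difference of the mutant effects was -3.90 ± 1.85 (SE; limma adjusted p = 0.773).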
